A study of Drosophila melanogaster with 6 samples.

Results

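UDP-glycosyltransferases (UGTs) are enzymes of the endoplasmic reticulum membrane that join a sugar, in insects mainly glucose from UDP-glucose, to small fat-soluble molecules and so make them easier to excrete. Their substrates in insects include plant toxins and insecticides, pigments, and odorants. They belong to the conjugation step of detoxification together with the glutathione S-transferases, after the oxidation step carried out by cytochrome P450 enzymes. The genes described here are all those in the deposited gene table whose FlyBase identifier carries, in the dm6 annotation, a symbol made of Ugt and a number. There were 35 of them among 17558 genes. The number after Ugt names the UGT family and the letter the subfamily, so that Ugt303B1, Ugt303B2 and Ugt303B3 are members of one subfamily.

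The data are 6 RNA-seq libraries from adult males of the fly Drosophila melanogaster, 3 control and 3 overexpressing. All flies had been injected with M. luteus, a Gram-positive bacterium that triggers Toll signalling, and were taken 12 h later. The control flies are labelled Gal80ts; Tub-Gal4/P{CaryP}attP40, and those of the overexpressing group Gal80ts; Tub> NANPI, where NANPI stands for the long noncoding RNA CR33942. Tub-Gal4 drives a transgene in most cells, Gal80ts is a temperature-sensitive repressor of Gal4, and attP40 is a landing site for transgenes. Both groups therefore carried Gal80ts, a Tub driver and the infection, while the strain and the overexpression differ together. No uninfected flies were analysed here, the labels give neither the age nor the number of flies per library, and nothing says that each library is a pool of its own. The p-values therefore reflect only how far these libraries vary, which may be technical. CR33942 itself stood at 18.7 to 19.5 FPKM in the control libraries and at 552.5 to 588.9 FPKM in the overexpressing libraries. FPKM counts fragments per length of gene and per depth of library and is a level per length, so levels can be set side by side between genes. Recovered whole reads came to between 15084193 and 17551534 per library, and along the second principal component of all tested genes overexpressing replicate 2 was at 17.1 while its group's other libraries were at -8.12 and -6.63. That library also held 59 reads of Cp36 and 10 of Vm26Aa, eggshell genes of the ovary that were listed at 0 in the other 5 libraries, although all flies are labelled male.

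Few of the tested UGT genes differed between the groups beyond the spread between libraries: Ugt303B3 and Ugt49B1 were called lower, and none was called higher. The 10 genes at levels too low for the test are described further down. A gene was tested if 3 or more of the 6 libraries reached 1 FPKM, with limma on log2(FPKM + 1), with Benjamini-Hochberg adjustment over all 12326 tested genes and a threshold of 0.05. Of the 35 UGT genes 25 passed this filter, and limma called 2 lower and 0 higher in the overexpressing flies. Over all tested genes 2.22% were called, 1.38% lower and 0.844% higher. At an unadjusted p under 0.05 the 25 UGT genes counted 5 lower and 1 higher, 6 in all, where 15.7% of all tested genes passed, and voom, limma's method for counts, run on reads recovered from the FPKM values, called 3 lower, where 2.46% of all genes it tested were called lower, and 0 higher (1.23% of all). The median log2 change of the 25 genes was 0.003, beside 0.002 over all tested genes, with 13 above 0 and 12 below. The 23 tested genes that were not called had log2 changes between -0.47 and 0.15. When 1 library was left out, the number of UGT genes called lower was 3 without overexpressing replicate 2, 1 without control replicate 3, and 0 in each of the other 4 fits. Without overexpressing replicate 2, 2.08% of all tested genes were called lower and 1.65% higher, and 0 UGT genes were called higher.

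**Figure D1:**
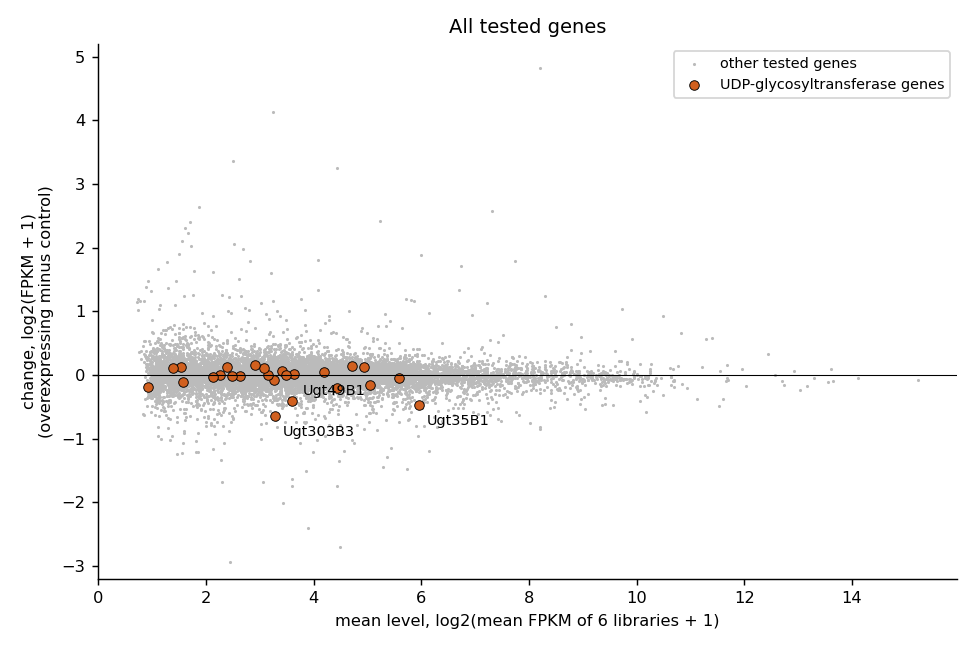
Change against mean level for every tested gene, on the log2(FPKM + 1) scale; each grey point is 1 of the other tested genes and each orange point 1 of the 25 tested UGT genes. The UGT genes lie within the cloud of other genes, with Ugt303B3 lowest at -0.65, then Ugt35B1 at -0.47 and Ugt49B1 at -0.40.

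Levels within the family covered a wide range. The mean over all 6 libraries was above 20 FPKM for 6 genes, between 5 and 20 FPKM for 11, between 1 and 5 FPKM for 7, and at or under 1 FPKM for 11. The order in the control libraries began with Ugt35B1 at 71.1 ± 4.91 FPKM, Ugt50B3 at 48.1 ± 2.58 FPKM, Ugt302C1 at 34.2 ± 0.964 FPKM, Ugt36D1 at 28.1 ± 1.93 FPKM and Ugt305A1 at 24.0 ± 0.786 FPKM (SD, n = 3). Among these 5 no control library of a gene overlapped one of the next gene in the order. Ugt305A1 and Ugt37D1, at 22.2 ± 0.858 FPKM, did overlap. Of the 34 neighbouring places in the order, 12 were separated by non-overlapping control libraries. The spread between control libraries was small for the tested genes, with a median coefficient of variation of 6.80%, and it was 9.56% in the overexpressing libraries.

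**Figure D2:**
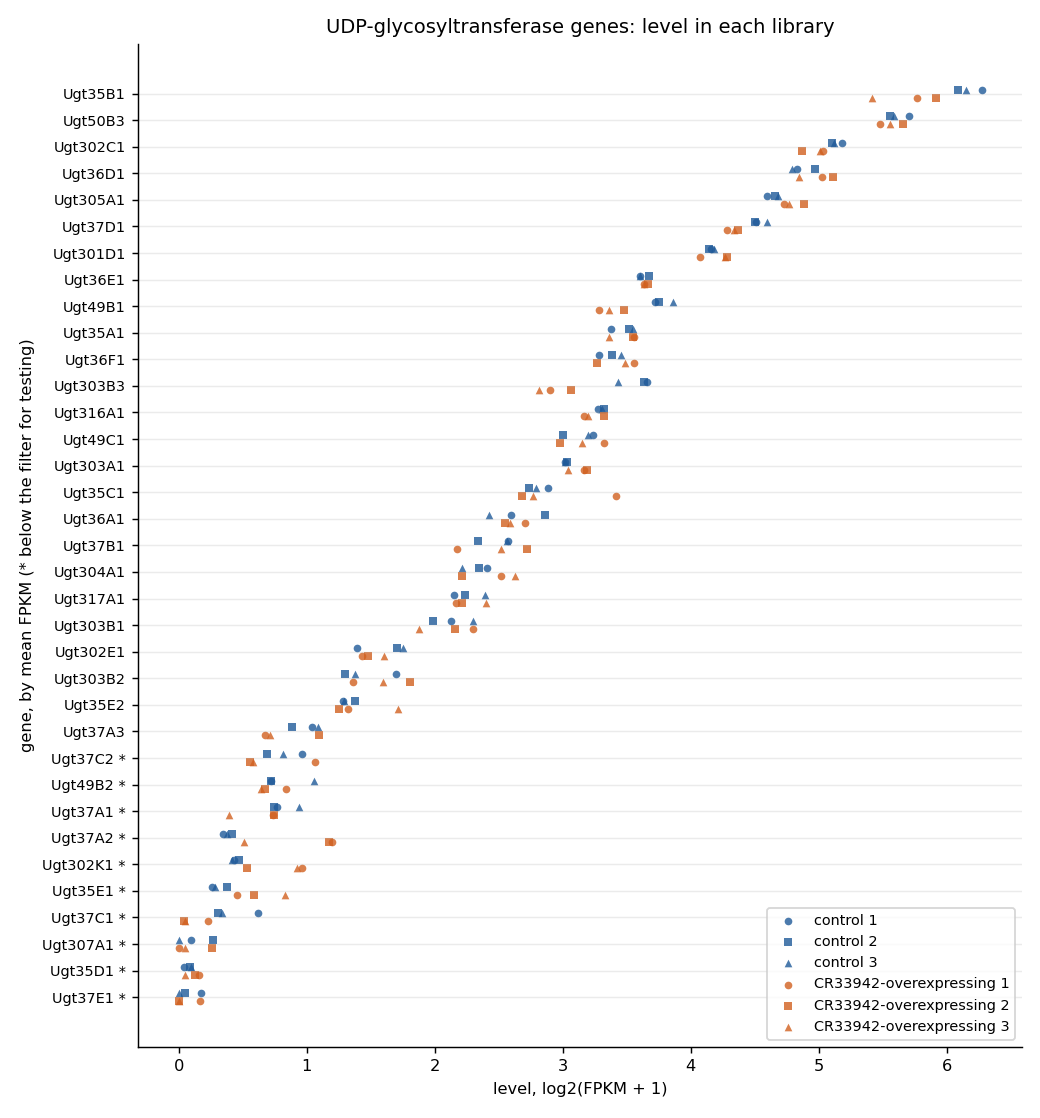
Level of each of the 35 UGT genes in each library, as log2(FPKM + 1), with genes ordered by mean FPKM; blue symbols are control and orange symbols overexpressing libraries, and genes marked * did not pass the filter. For Ugt303B3, Ugt49B1 and Ugt35B1 all 3 orange symbols lie left of all 3 blue ones, whereas for most other genes the colours overlap.

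Of the tested UGT genes, Ugt303B3 fell the most. This gene (FBgn0039085), 1 of 3 members of its subfamily, lies on the minus strand of chromosome 3R at 23532945 to 23534767. It stood at 11.6, 11.4 and 9.81 FPKM in the control libraries and at 6.49, 7.35 and 6.03 FPKM in the overexpressing libraries. Every overexpressing library was below every control library. The overexpressing mean was 0.605 of the control mean, with a log2 change of -0.65 ± 0.09 (SE; limma, adjusted p = 0.0174). Its reads were 303 to 394 in the control libraries and 190 to 260 in the overexpressing ones, so the gene was well covered in all 6. The call was kept without control replicate 3 (limma, adjusted p = 0.0319) or overexpressing replicate 2 (0.0105). It was lost without control replicate 1 (0.0723) or 2 (0.0829) and without overexpressing replicate 1 (0.0658) or 3 (0.0583), with log2 changes between -0.72 and -0.59 over the 6 fits.

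The neighbouring members of the same subfamily did not pass the test. Ugt303B1, 132 bases from Ugt303B3 on the same strand, stood at 3.37, 2.97 and 3.93 FPKM in the controls and at 3.93, 3.46 and 2.67 FPKM in the overexpressing libraries (limma, adjusted p = 0.955). Ugt303B2, a further 282 bases on, stood at 2.24, 1.46 and 1.6 FPKM and at 1.57, 2.50 and 2.02 FPKM (adjusted p = 0.762). In both genes the groups overlapped. The level of Ugt303B3 relative to Ugt303B1 was 3.44, 3.84 and 2.50 in the controls and 1.65, 2.12 and 2.25 in the overexpressing libraries, and relative to Ugt303B2 it was 5.18, 7.79 and 6.13 against 4.14, 2.94 and 2.98. Neither ratio overlapped between the groups. Each gave an exact two-sided permutation p of 0.1, the smallest that 3 against 3 libraries allow (adjusted p = 0.133 over the 4 ratios computed, which were chosen after the values were seen). The nearest other gene, CG10175, was at 8.47 to 9.71 FPKM in the controls and 7.91 to 8.96 FPKM in the overexpressing libraries, and did not pass (adjusted p = 0.556).

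Ugt49B1 (FBgn0027073), on the minus strand of chromosome 2R at 21212880 to 21214972, was the other gene called lower. Its control libraries were at 12.2, 12.5 and 13.5 FPKM and its overexpressing libraries at 8.74, 10.2 and 9.25 FPKM. The groups did not overlap. The overexpressing mean was 0.737 of the control mean, with a log2 change of -0.40 ± 0.07 (SE; limma, adjusted p = 0.0398). This call passed without overexpressing replicate 2 (adjusted p = 0.021) and was lost without each of the other 5 libraries, with adjusted p between 0.104 without control replicate 1 and 0.131 without control replicate 3. It was also lost when libraries were rescaled to the same total FPKM (0.0547), with no filter (0.0688) and without the variance trend (0.0578).

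Ugt49C1, the tandem neighbour of Ugt49B1 at a distance of 462 bases, stood at 8.4, 6.99 and 8.18 FPKM in the controls and at 8.98, 6.88 and 7.89 FPKM in the overexpressing libraries, which overlapped (limma, adjusted p = 0.985). The ratio of Ugt49B1 to Ugt49C1 was 1.45, 1.79 and 1.65 in the controls and 0.973, 1.48 and 1.17 in the overexpressing libraries. Here the groups overlapped, with control replicate 1 below overexpressing replicate 2 (exact two-sided permutation p = 0.2). The third gene of this family, Ugt49B2, lies on chromosome 3R and was below the filter, at 0.722 FPKM over all libraries. Ugt49B1 shares 90 exonic bases, 5.13% of its exon length, with CG44245 on the opposite strand, and the labels do not say whether reads were counted by strand. CG44245 stood at 45.1 to 54.0 FPKM in the controls and at 50.3 to 60.0 FPKM in the overexpressing libraries (adjusted p = 0.313).

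**Figure D3:**
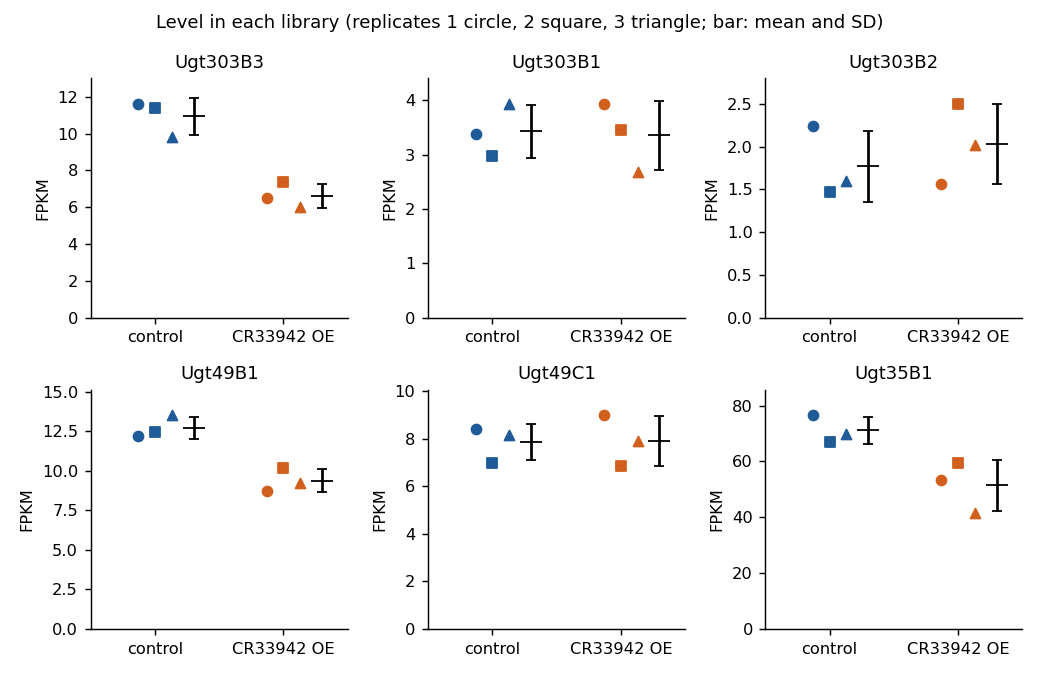
FPKM of 6 UGT genes in each library, with axes from 0; symbols are libraries and the bar beside them is the mean and SD of 3. Ugt303B3, Ugt49B1 and Ugt35B1 have all overexpressing libraries below all control libraries, while Ugt303B1, Ugt303B2 and Ugt49C1 overlap.

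Ugt35B1 (FBgn0026314), the most abundant UGT gene in these flies, did not pass by limma on FPKM. It lies on the minus strand of chromosome 3R at 11168503 to 11170246. Its control libraries were at 76.5, 66.9 and 70.0 FPKM and its overexpressing libraries at 53.4, 59.4 and 41.6 FPKM. The groups did not overlap, but the overexpressing libraries were spread widely, with a coefficient of variation of 17.6% against 6.90% in the controls. The overexpressing mean was 0.723 of the control mean, at a log2 change of -0.47 with an SE of 0.12 (limma, adjusted p = 0.117). It was called lower by voom on recovered reads (adjusted p = 0.0326) and by limma without overexpressing replicate 2, its highest overexpressing library (0.0369). Without each of the other libraries it did not pass (adjusted p up to 0.317).

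Because Ugt35B1 is so abundant, it weighed on the summed level of the family. The sum over the 35 genes was 366.8, 354.4 and 359.3 FPKM in the controls and 334.8, 347.5 and 317.8 FPKM in the overexpressing libraries. Ugt35B1 made up 20.9, 18.9 and 19.5% of this sum in the controls and 15.9, 17.1 and 13.1% in the overexpressing libraries. Without Ugt35B1 the sums were 289.0 ± 1.46 FPKM and 281.9 ± 5.94 FPKM (SD, n = 3 each), and overexpressing replicate 2, at 288.1 FPKM, lay within the control range of 287.5 to 290.3 FPKM.

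The other abundant members differed little. Ugt50B3, at 51.0, 46.2 and 47.1 FPKM in the controls and 43.5, 49.5 and 46.0 FPKM in the overexpressing libraries, overlapped between groups (limma, adjusted p = 0.771). Ugt302C1 stood at 35.2, 33.4 and 33.8 FPKM in the controls and at 31.8, 28.3 and 31.2 FPKM in the overexpressing libraries, with groups apart but not past the threshold (log2 change -0.16, adjusted p = 0.258). Ugt37D1 was also apart, at 21.7, 21.6 and 23.1 FPKM against 18.5, 19.7 and 19.2 FPKM (log2 change -0.20, adjusted p = 0.138). These 2 genes thus had all overexpressing libraries lower by a small margin.

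Ugt305A1 lay the other way, at 23.1, 24.2 and 24.7 FPKM in the controls and 25.4, 28.5 and 26.2 FPKM in the overexpressing libraries (log2 change 0.15; limma, adjusted p = 0.308). Ugt36D1 stood at 27.4, 30.3 and 26.7 FPKM and at 31.6, 33.5 and 27.7 FPKM, with overlap (adjusted p = 0.521). Ugt301D1, at 16.8, 16.6 and 17.2 FPKM and at 15.9, 18.4 and 18.3 FPKM, overlapped as well (adjusted p = 0.796). Ugt36E1, a gene known for a role in pheromone sensing in olfactory neurons, was the steadiest of the abundant members, at 11.2, 11.8 and 11.1 FPKM in the controls and 11.5, 11.7 and 11.4 FPKM in the overexpressing libraries (log2 change 0.02 ± 0.06 SE, adjusted p = 0.917). Including these, 7 of the 25 tested UGT genes had groups that did not overlap, 5 lower and 2 higher. Over all tested genes 20.7% did not overlap, 11.7% lower and 9.06% higher. The second one higher was Ugt303A1, at 7.11, 7.20 and 7.11 FPKM against 7.98, 8.14 and 7.24 FPKM (adjusted p = 0.505).

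**Figure D4:**
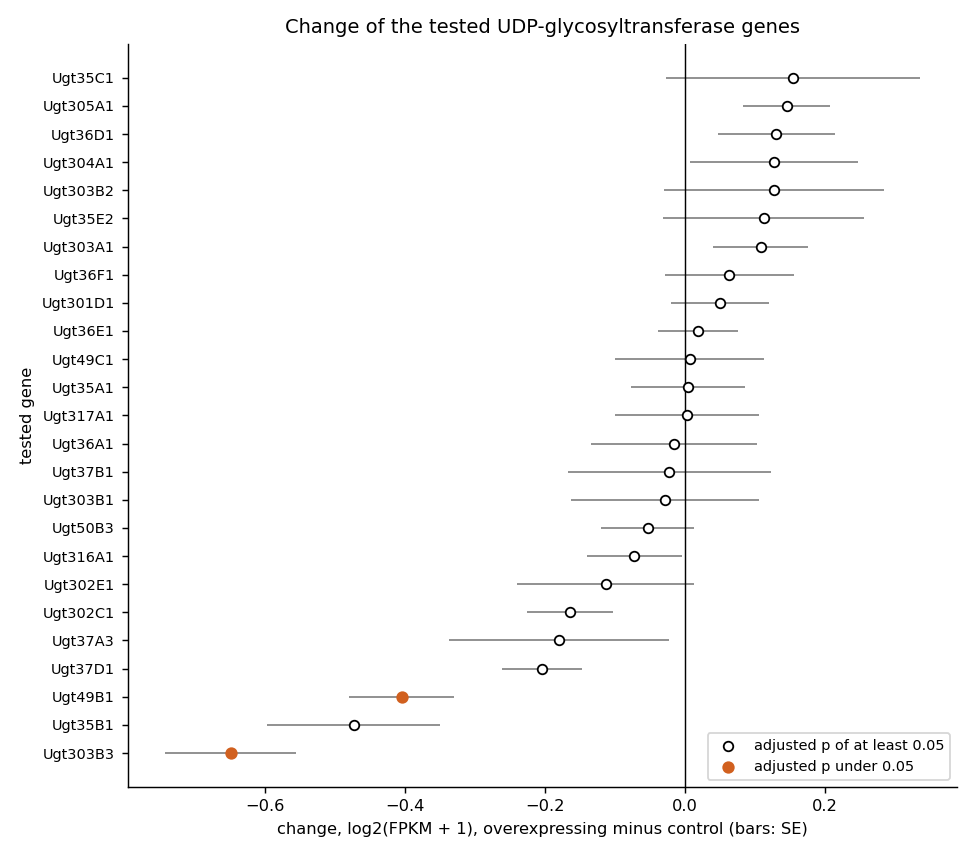
Log2 change of each of the 25 tested UGT genes on the log2(FPKM + 1) scale, overexpressing minus control, with its SE; filled points passed the threshold. Only Ugt303B3 and Ugt49B1 are filled, and 21 of the 25 points lie within 0.2 of 0.

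Among the less abundant tested genes, named after their values were seen for what is known of them, were Ugt35C1 and Ugt36A1. Ugt35C1, also called Ugt86Dd and known for its part in nicotine resistance in flies, stood at 6.38, 5.66 and 5.91 FPKM in the controls and at 9.68, 5.43 and 5.83 FPKM in the overexpressing libraries. Overexpressing replicate 1 alone was high, and the other 5 libraries lay close together (limma, adjusted p = 0.751). Ugt36A1, also called Dorothy and used as a haemocyte and pericardial cell marker through its Gal4 line, stood at 5.03, 6.29 and 4.36 FPKM and at 5.50, 4.85 and 5.00 FPKM (adjusted p = 0.971). Ugt36A1 shares 400 exonic bases, 17.4% of its exon length, with CG15418 on the opposite strand, where reads of the pair cannot be told apart unless counting used strand. The other 8 tested genes not given library by library, from Ugt36F1 at 9.63 FPKM to Ugt37A3 at 0.900 FPKM over all libraries, had adjusted p of 0.653 or more, and their groups overlapped. Ugt37A3 passed the filter through exactly 3 libraries, 2 control and 1 overexpressing.

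Below the filter lay 10 UGT genes, and 5 of these had groups that did not overlap, beside 10.2% of the 3592 genes below the filter with any value above 0. That base takes in genes above 0 in a single library, whose groups cannot separate, so it is a low one. Among tested genes the share was 20.7%. Ugt37A2 stood at 0.274, 0.336 and 0.301 FPKM in the controls and at 1.30, 1.25 and 0.425 FPKM in the overexpressing libraries. This rested on 29 control and 101 overexpressing reads, a ratio of 3.34 after scaling with a 95% interval of 2.19 to 5.24. The interval is exact binomial and covers counting error only, and overexpressing replicate 3 had 13 reads against 45 and 43. Ugt302K1 had 51 and 113 reads (ratio 2.13, interval 1.52 to 3.02) and Ugt35E1 had 21 and 50 reads (ratio 2.29, interval 1.35 to 4.01). Ugt37C1 went down, with 18, 8 and 8 reads in the controls and 6, 1 and 1 in the overexpressing libraries (ratio 0.226, interval 0.0903 to 0.497).

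None of these genes passed when limma was run without a filter, in which the adjusted p was 0.243 for Ugt37A2, 0.269 for Ugt302K1, 0.273 for Ugt35E1 and 0.276 for Ugt37C1. That fit used log2(FPKM + 1), which understates changes at such low levels, with 0.579 for Ugt37A2 and 0.367 for Ugt302K1. Voom was not run on genes below the filter, so these results do not show that the genes were unchanged. Ugt37A1, the fifth, was at 0.6761 to 0.9146 FPKM in the controls and 0.3102 to 0.6756 FPKM in the overexpressing libraries, so that the nearest libraries were all but equal. Ugt37C2 and Ugt49B2, at means of 0.732 and 0.722 FPKM over all libraries, overlapped. Ugt307A1, Ugt35D1 and Ugt37E1 were close to absent, with 15, 13 and 9 reads in all 6 libraries together, and Ugt307A1 and Ugt37E1 were listed at 0 in some libraries of both groups.

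Most UGT genes lie side by side in the genome. With members no more than 20 kb apart counted together, 22 of the 35 formed 6 tandem groups, and 13 lay alone. There were 17 on chromosome 3R, 11 on 2L, 5 on 2R, 2 on 3L and 0 on X. The largest group held 9 genes on chromosome 3R between 11151026 and 11177910, and Ugt35C1 lies just outside it at 11126597. Levels within this group differed 156-fold, from Ugt35E1 at 0.394 FPKM to Ugt35B1 at 61.3 FPKM over all libraries. Ugt35A1, 570 bases from Ugt35B1 on the same strand, stood at 9.40, 10.4 and 10.7 FPKM in the controls and at 10.7, 10.7 and 9.27 FPKM in the overexpressing libraries. The ratio of Ugt35B1 to Ugt35A1 was 8.14, 6.41 and 6.53 in the controls and 4.97, 5.55 and 4.49 in the overexpressing libraries, without overlap (p = 0.1 by the same exact permutation test, adjusted p = 0.133).

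The 1 gene of the table inside this group that is not a UGT, CG4757, was also lower, at 375.0, 331.1 and 427.2 FPKM in the controls and 175.7, 231.8 and 234.9 FPKM in the overexpressing libraries (limma, log2 change -0.82 ± 0.13 SE, adjusted p = 0.0247). It was named after its values were seen, and it passed without overexpressing replicate 2 and in none of the other 5 fits without 1 library (adjusted p up to 0.0887). In the remaining groups the levels also differed between neighbours. Ugt37D1, at 20.6 FPKM, lies next to Ugt37E1 at 0.0471 FPKM, while the 3 genes of the Ugt36 group on 2L lay between 9.63 and 29.5 FPKM, none of them past the threshold.

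**Figure D5:**
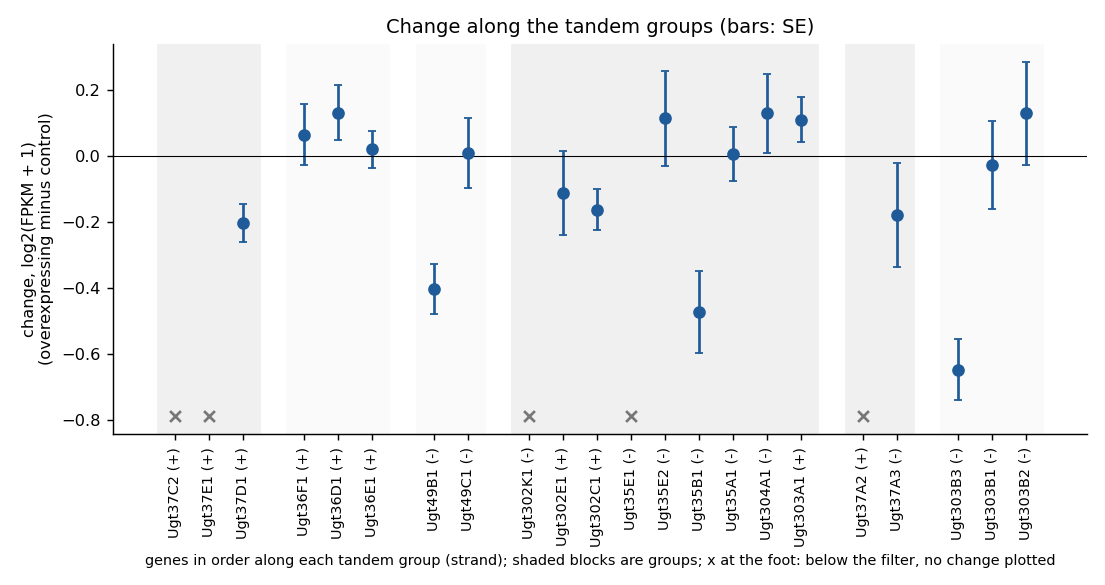
Log2 change on the log2(FPKM + 1) scale, with SE, of the 22 UGT genes in the 6 tandem groups, in the order of the genes along the chromosome; strand is in brackets, shaded blocks are the groups, and a cross at the foot marks a gene below the filter. Ugt303B3, Ugt49B1 and Ugt35B1 lie lowest at -0.65, -0.40 and -0.47 while their nearest neighbours lie between -0.03 and 0.11.

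The enzymes of the neighbouring detoxification steps were set beside the UGT genes. Of 73 tested cytochrome P450 genes limma called 4 lower and 0 higher, where 2.22% of all tested genes were called. Their median log2 change was -0.05. At an unadjusted p under 0.05 there were 17 lower and 7 higher, 24 in all, where 15.7% of all tested genes passed. Voom called 5 lower and 0 higher, where it called 2.46% of all genes it tested lower and 1.23% higher. The groups did not overlap for 28 of the 73, 21 lower and 7 higher, where the share over all tested genes was 20.7%. Cyp6g1, known for insecticide resistance, fell from 117.4 ± 4.8 to 76.0 ± 4.88 FPKM and Cyp309a2 from 15.9 ± 0.709 to 10.1 ± 0.382 FPKM (limma, adjusted p = 0.00404 and 0.00439), and both passed in all 6 fits without 1 library. Cyp4d20 and Cyp4aa1 fell as well (adjusted p = 0.017 and 0.0369) but passed in only 2 and 1 of those fits: Cyp4d20 without overexpressing replicates 2 and 3, Cyp4aa1 without overexpressing replicate 2.

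Of 32 tested glutathione S-transferase genes limma called 3 lower and 1 higher, where 2.22% of all tested genes were called, with a median log2 change of -0.14. At an unadjusted p under 0.05 there were 11 lower and 3 higher, 14 in all, where 15.7% of all tested genes passed. Voom called 4 lower and 1 higher, where it called 2.46% of all genes it tested lower and 1.23% higher. The groups did not overlap for 12 of the 32, 9 lower and 3 higher, where the share over all tested genes was 20.7%, 11.7% lower and 9.06% higher. GstE7 fell from 39.6 ± 4.83 to 23.3 ± 1.47 FPKM (limma, adjusted p = 0.0112), a call that did not hold without control replicate 1 (0.0536). GstE8 and GstT3 fell and GstT4 rose with adjusted p of 0.0375, 0.0489 and 0.0318. The call of GstE8 was lost without each library, that of GstT3 without each but overexpressing replicate 3 and that of GstT4 without each but overexpressing replicate 2.

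Of the genes that supply UDP-sugars, Pgm1, which encodes phosphoglucomutase, fell from 141.7 ± 6.0 to 114.8 ± 1.50 FPKM (limma, log2 change -0.30, adjusted p = 0.0296), and passed in 1 of the 6 fits without 1 library, that without overexpressing replicate 2. UGP, whose enzyme makes UDP-glucose, the UGT sugar donor, stood at 86.6 ± 4.30 and 85.5 ± 2.77 FPKM (adjusted p = 0.917). The gene sgl, whose enzyme makes UDP-glucuronate, stood at 20.9 ± 0.324 and 25.6 ± 2.84 FPKM (adjusted p = 0.163), and frc, a UDP-sugar transporter gene, was listed at 0 throughout. Whether this 0 for frc reflects its level in the flies or how reads were counted was not tested. Limma called 0 of 5 tested regulators of xenobiotic response (0 at an unadjusted p under 0.05, 0 by voom). Among them cnc, the fly counterpart of Nrf2, stood at 25.6 ± 0.861 and 24.5 ± 0.985 FPKM and maf-S, its binding partner, at 109.5 ± 0.774 and 109.1 ± 3.93 FPKM (SD, n = 3 each). It also called 0 of 3 tested sulfotransferase genes (1 at an unadjusted p under 0.05, 1 by voom), of which St1 stood at 14.4 ± 0.634 and 10.6 ± 1.35 FPKM and St3 at 13.7 ± 0.683 and 14.0 ± 0.625 FPKM. Of 5 efflux transporter genes it called 0 (1 at an unadjusted p under 0.05, and 0 by voom of the 4 it tested, without MRP). MRP stood at 26.2 ± 0.683 and 25.1 ± 0.871 FPKM and Mdr49 at 21.4 ± 1.32 and 25.4 ± 2.66 FPKM. For scale, limma called 2.22% of all tested genes, and 15.7% passed at an unadjusted p under 0.05. Voom called 2.46% of all genes it tested lower and 1.23% higher.

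UGT genes are expressed in several tissues, and in such samples fewer cells of a type and less RNA per cell cannot be told apart. Of 4 tested fat body markers limma called 2 lower, fat-spondin and Tps1 (adjusted p = 0.00668 and 0.0254), and voom called 2 lower. The others, apolpp at 106.4 ± 20.5 and 72.9 ± 18.02 FPKM and Lsd-1 at 71.3 ± 7.90 and 51.2 ± 13.03 FPKM (SD, n = 3 each), did not pass (limma, adjusted p = 0.205 and 0.201) and overlapped between the groups. At an unadjusted p under 0.05 by limma all 4 tested markers were lower, with log2 changes between -0.55 and -0.42. The list summed to 580.2 to 679.1 FPKM in the controls and 418.1 to 513.1 FPKM in the overexpressing libraries. Lsp2 and fit, of the same list, were under the filter in both groups. The call of Tps1 was kept without control replicate 3 or overexpressing replicate 2 and lost without each other library. Of 8 Malpighian tubule markers limma called 0 (4 at an unadjusted p under 0.05, all lower, and 2 lower by voom), and the sums were 258.0 to 287.6 and 231.9 to 264.8 FPKM. The other 4 tubule markers had log2 changes above 0, the largest 0.26 for Uro (limma, adjusted p = 0.608). Uro passed as higher only in the fit without overexpressing replicate 2 (limma, adjusted p = 0.0136). Limma called 0 of 8 midgut, 0 of 12 testis, 0 of 9 accessory gland and 0 of 8 antennal markers. At an unadjusted p under 0.05 these counted 1, 1, 1 and 0. Voom called 1, 0, 0 and 0, with the accessory gland gene Acp36DE left out of it. Beside these marker counts, limma called 2.22% of all tested genes, and 15.7% passed at an unadjusted p under 0.05. Voom called 2.46% of all genes it tested lower and 1.23% higher. The sums of these 4 lists overlapped between the groups. Of 6 markers of the female ovary and yolk, listed to check the labelled sex, Yp1, Yp2, Vm26Aa, Cp36 and osk were below the filter, with Cp36 at 2.635 FPKM and Vm26Aa at 0.669 FPKM in overexpressing replicate 2 and at 0 elsewhere, while Yp3, a yolk protein gene, fell from 32.4 ± 1.04 to 9.04 ± 1.49 FPKM (SD, n = 3 each; limma, adjusted p = 0.000441) and passed in all 6 fits without 1 library. The part of any tissue in the changes of the UGT genes was not tested.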

How the data were processed

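Per the labels' protocols, poly-T selected mRNA was sequenced as paired ends, aligned with HISAT2 2.0.5 and counted with featureCounts 1.5.0-p3, and the authors tested counts with DESeq2. Per the submitters' processing notes they used dm6. The deposited table gives FPKM per gene and library, without saying how counts became FPKM. Near-identical UGT copies could share reads. Of 17558 identifiers, 17251 had a symbol in the Ensembl release of the dm6 annotation, whose coordinates are given.

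Multiplied by exon length, FPKM came out within 0.01 of a read of a whole number in all libraries for 15276 of 15918 genes with any value, or 96.0%, and for 34 of the 35 UGT genes (not Ugt37A1). The other genes were left out of voom, which used the scaling the values imply. Tests were two-sided, by limma 3.58.1 in R 4.3.3 (lmFit, eBayes with a trend) on log2(FPKM + 1), which understates the change of low genes. The fit was also run on simulated data, with noise drawn independently for each gene and library. Such data hold no shift shared by the genes of 1 library, so they cannot show how far calls depend on 1 library. Alternatives were other pseudocounts, filters and scaling, no trend, voom, replicate number as a block, and leaving out each library.

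Members and lists were chosen with earlier results of these data known. Library values are given for called members, the 8 most abundant, and those with groups apart and an absolute log2 change of at least 0.3. From the detoxification and UDP-sugar lists up to 4 called genes are named, or the 2 most abundant where none was called. Tissue lists are given by counts and sums. Tandem neighbours, UGP, sgl and frc, read counts below the filter, the fat body and female markers named and other exceptions were chosen after values were seen. The fat body list's FASN1 was not analysed here.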

Additional observations from a re-analysis of the deposited data

How the results depend on the processing

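The number of UGT genes called higher was 0 in all 14 alternatives, and the median log2 change of the tested ones moved by less than the spread between libraries. The number called lower was 1 with no filter, without a trend, with equal total FPKM and with the replicate block, in each case Ugt303B3, and between 0 and 3 without 1 library. Ugt49B1 had adjusted p of 0.0688, 0.0578, 0.0547 and 0.105 in those 4 fits. Over all genes the 274 calls became 438 with voom, 110 with the replicate block, and between 72 and 459 without 1 library, with 459 without overexpressing replicate 2. The direction of each of the 10 UGT genes that were called or among the 8 most abundant was kept in all 14. Other filters, no trend and the replicate block leave the log2 change itself unaltered, so they could not turn a direction. For genes near 0 a kept direction says little, as for Ugt36E1 at 0.0056 (SE 0.0657) without control replicate 3. Depth limits the genes below the filter, which had 0 to 49 recovered reads per library. The replicate numbers do not pair the libraries: deviations of same-numbered libraries correlated at -0.0528, -0.185 and 0.0327, and 0 of 6 libraries correlated best with their own number. The cause of these shifts was not tested.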
